A study of Mus musculus with 8 samples.

Results

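The collagen genes were examined in C2C12 cells that carried a control or an HDAC4 retrovirus. They were taken as all probes that the platform annotation assigns to exactly 1 gene whose symbol is Col, a number, a and a number. The rule found 77 probes of 37 genes among 31769 probes, of which 18976 name exactly 1 gene. By class, 24 probes belong to 10 fibrillar genes and 19 probes to 8 basement membrane genes. A further 17 probes belong to 8 genes of the FACIT class, the fibril-associated collagens with interrupted triple helices, and 17 probes to 11 genes of other kinds. RefSeq's gene table for GRCm38.p6 lists 44 genes with such symbols, and the 7 without a probe of their own, Col1a1, Col6a3, Col6a5, Col8a2, Col22a1, Col25a1 and Col28a1, were not analysed here. Another 6 probes name both Col4a1 and Col4a2 and are given apart from the members.

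Collagens are trimers of chains that wind into a triple helix in the endoplasmic reticulum and are secreted. Fibrillar collagens such as types I, III and V then assemble into the fibrils of connective tissue, whereas type IV forms the network of the basement membrane that surrounds every muscle fibre. FACIT collagens sit on the surface of fibrils, and type VI forms beaded filaments next to the muscle basement membrane.

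C2C12 is an established mouse myoblast line of C3H origin that fuses into myotubes when serum is lowered. The control cells (Neo) had been stably selected with a retrovirus that encodes Neo, a drug resistance gene, and the HDAC4 cells with a retrovirus that encodes HDAC4 together with Neo. HDAC4 is a histone deacetylase of class IIa and a partner of MEF2, which drives transcription in muscle. Both groups reached 90% confluence and then spent 4 days in 2% horse serum, and each group had 4 samples. The series is titled for repression of the dystrophin-glycoprotein complex by HDAC4. The labels do not say how many clones or cell pools the selected lines came from. They also leave unsaid whether the samples of a group were grown as separate cultures, and p-values then cover only the spread among these samples, possibly a technical one.

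Each sample's RNA was labelled with Cy5 and hybridised beside a common murine reference RNA in Cy3, and no array had the dyes swapped. Every value below is a log2 ratio, most likely of cells over reference, centred on the median of its array. A difference is the HDAC4 mean minus the Neo mean on that scale, and its fold is 2 to the power of its size. Levels of different genes are not compared, since each ratio depends on its own amount in the reference.

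All 8 tested marker genes of skeletal myotubes had a value on every array, with medians over the markers of 8.51 to 8.81 on the Neo arrays and 8.10 to 8.55 on the HDAC4 arrays. Of 6 endothelial marker genes with a probe, 1 could be tested, and no adipocyte or liver marker gene could. Of 6 macrophage and leukocyte marker genes 5 could be tested, 1 above and 4 below 0, with a median difference of -0.18. Of 7 marker genes of proliferating or undifferentiated myoblasts 6 could be tested, 4 above and 2 below 0, with a median of 0.09. No probe of either list passed the adjusted test. Over the fibroblast marker probes with a value on a given array, tested or not, medians were -2.63 to 0.14 on the Neo arrays. On the HDAC4 arrays they were -1.10 to 0.20, and Tcf21 had no value on any array. The 6 tested fibroblast markers had a median difference of 0.23, 3 above and 3 below 0, and 0 of the 6 passed the adjusted test. In such bulk samples fewer cells of a type and less RNA per cell cannot be told apart.

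The Neo and HDAC4 arrays titled with replicate number 1 stood apart from the other 6. They correlated with each other at 0.945 over probes and with the other arrays at 0.893 to 0.910, whereas the other 6 arrays correlated with each other at 0.936 to 0.977. These 2 arrays differed from the other 6 in 3608 of 16619 probes (21.7%). They differed from them in 13 of 36 collagen probes (36.1%), of which 6 were higher and 7 lower. Values without this pair are therefore given beside those of all 8 arrays, except for Col4a6, Col6a6 and Col20a1, which then had under 3 values in a group. No label used here gives a reason for the difference, and none was tested. The marker lists moved with the pair as well. Without it the median difference of the fibroblast markers was -0.48 over 5 probes, 2 above and 3 below 0. Thy1, at 1.29 over all 8 arrays, could not be tested there, so this median covers a different set of probes. Pdgfra had 0.74 over all 8 arrays and 0.83 without the pair, and did not pass. Without the pair Dpt, dermatopontin, was lower in HDAC4, at -0.81 with an adjusted limma p of 0.0210. Sox9, a cartilage regulator, was then higher in HDAC4, at 0.83 with an adjusted limma p of 0.0306. Over all 8 arrays neither Dpt (-0.17) nor Sox9 (0.59) passed. Of the 3 tested cartilage and bone markers, 1 was higher and 2 were lower over all 8 arrays, with a median of -0.45. Acan, at -0.53, was among the lower ones, and Sox9 was the only marker of that list that could be tested without the pair. Without the pair, the markers of undifferentiated myoblasts had a median of 0.14 over 5 probes. Those of macrophages and leukocytes had 0.07 over 3 probes, and none of either list passed. The myotube markers had a median difference of -0.17 over all arrays and 0.04 without the pair. Of their values, 97.4% were called at a floor of the reference channel, which is described below with Col24a1. That call rests on the spacing of ratios, which was examined from 0.1 to 10 only. The ratios of these markers lay far above 10, where coarser rounding could give the same call. With the median of floor probes set equal on all arrays, their median difference over all arrays was 0.38. Of the 9 tested probes, 7 were then above and 2 below 0. The part of these markers in the collagen values was not tested.

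Of the 77 collagen probes, 37 probes of 23 genes had at least 3 values in each group and were tested. Of the rest, 21 had too few values and 19 none at all. The number of collagen probes with a value was 41, 44, 54 and 47 on Neo replicates 1 to 4 and 34, 38, 44 and 43 on HDAC4 replicates 1 to 4. Neo arrays averaged 46.5 ± 5.57 (SD, n = 4) such probes, HDAC4 arrays 39.8 ± 4.65 (SD, n = 4), and the 2 ranges overlapped. The share of collagen probes with a value was thus 53.2 to 70.1% on the Neo arrays and 44.2 to 57.1% on the HDAC4 arrays. Over all probes it was 60.6 to 69.9% and 53.6 to 58.3%, with no overlap.

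In the comparison of HDAC4 with Neo, 1 of the 37 tested collagen probes passed the adjusted test (2.70%), that of Col24a1, which fell. Over all probes 21 of 16748 passed (0.125%), 1 higher and 20 lower, and 9 passed with the replicate number as a block. With the median of floor probes set equal on all arrays, 4 of all probes passed, 3 higher and 1 lower. At an unadjusted p under 0.05 the collagen probes numbered 5 of 37 (13.5%), beside 1177 of all probes (7.03%). Those 5 were Col18a1, which was higher in HDAC4, and Col24a1, Col4a1, Col5a2 and Col4a5, which were lower. The groups did not overlap in 3 collagen probes (8.11%), Col24a1, Col18a1 and Col5a2, beside 879 of all probes (5.25%).

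When the arrays numbered 1 were left out, 4 of 34 collagen probes passed (11.8%), beside 348 of 15397 probes in all (2.26%). There Col18a1 was higher in HDAC4 and Col24a1, Col4a1 and Col4a5 were lower. With all 8 arrays and the pair numbered 1 as a batch, Col24a1 was again the 1 collagen probe of 37 that passed, beside 108 of 16748 probes in all (0.645%).

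**Figure D1:**
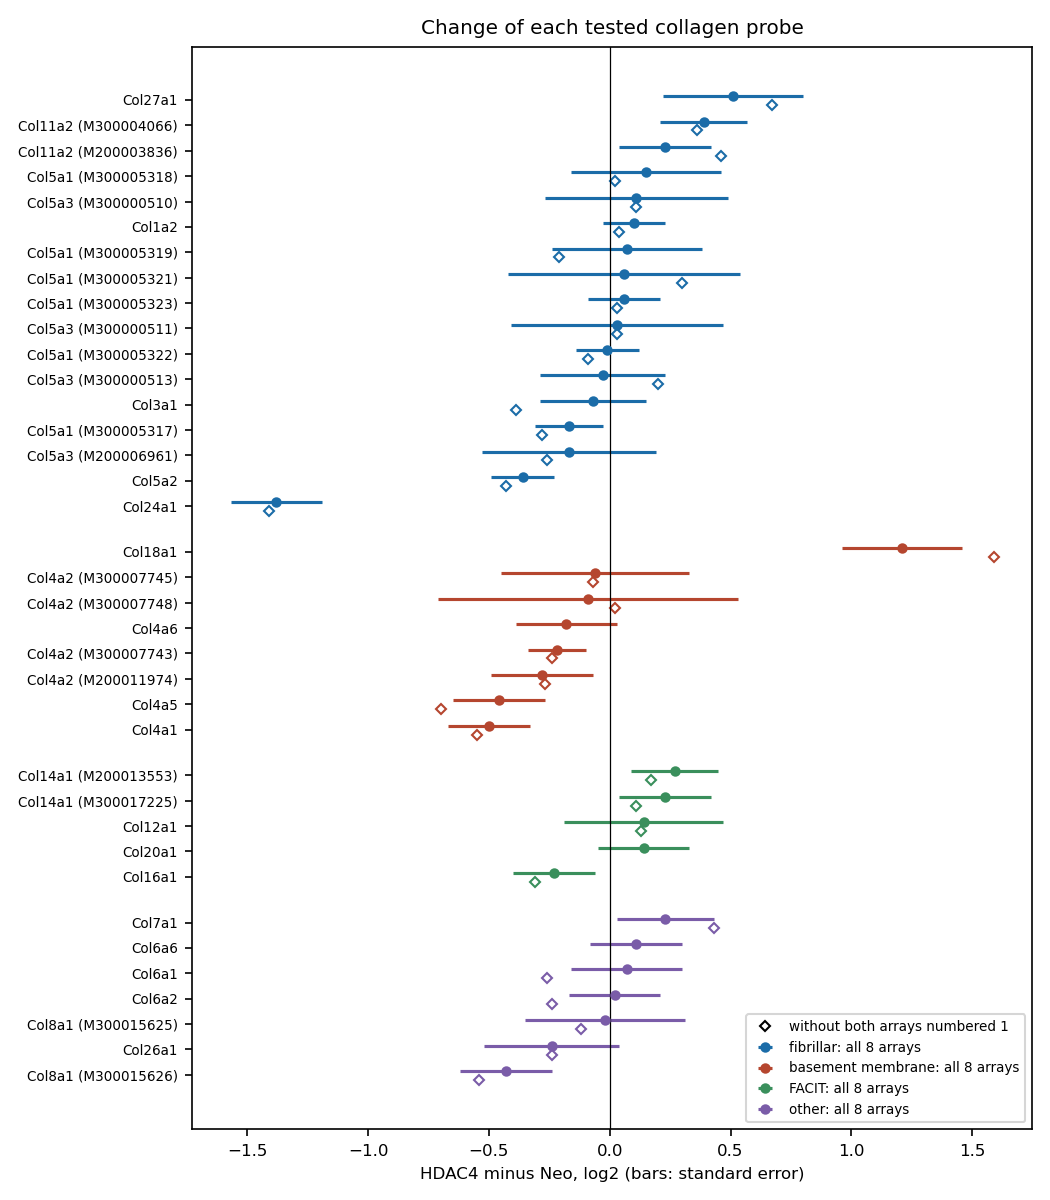
Difference of HDAC4 minus Neo on the log2 scale (horizontal axis) for each of the 37 tested collagen probes, grouped by class. Filled points with bars are the value over all 8 arrays and its standard error, and open diamonds the value without both arrays numbered 1. Col24a1 at -1.38 and Col18a1 at 1.21 lie farthest from 0.

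Col24a1 encodes the chain of type XXIV, a fibrillar collagen known from developing bone and cornea. Its promoter is shown because it is the collagen gene that passed the test over all 8 arrays. The 250 bases before the RefSeq start are on the plus strand of GRCm38.p6 at chr3:145292222-145292471, written 5′ to 3′, and capitals mark each match to the E-box letters CANNTG, the motif that muscle factors of the MyoD family bind.
Col24a1: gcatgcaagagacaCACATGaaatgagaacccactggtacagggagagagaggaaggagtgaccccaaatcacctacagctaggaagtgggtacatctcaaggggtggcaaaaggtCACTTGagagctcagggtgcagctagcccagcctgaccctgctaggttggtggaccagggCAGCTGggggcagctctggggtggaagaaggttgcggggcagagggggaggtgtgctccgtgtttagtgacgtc
The window holds 3 E-box matches and no match to the MEF2 motif or to GGGCGG, the GC box. These are letters in a sequence and were not measured as binding sites. Of 32851 RefSeq promoter windows of 300 bases, 72.3% hold an E-box match, 35.7% a GC box and 3.19% a MEF2 match.

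On the 4 Neo arrays the Col24a1 probe (M200015099) had log2 ratios of 2.12, 1.76, 1.71 and 1.69. On the 4 HDAC4 arrays it had 0.84, 0.12, 0.56 and 0.24. All Neo values lay above all HDAC4 values, and within each group replicate 1 was the highest. The means were 1.82 ± 0.20 (SD, n = 4) and 0.44 ± 0.32 (SD, n = 4).

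The difference of -1.38 ± 0.19 (SE), a 2.60-fold lower ratio in HDAC4, had an adjusted p of 0.0333 in limma. An exact two-sided permutation test over the arrays gave p = 0.0286, the smallest that 4 against 4 arrays allow. Same-numbered arrays differed by -1.28, -1.64, -1.15 and -1.46. Since the groups did not overlap, HDAC4 would be lower in every pair under any pairing. Without the arrays numbered 1 the difference was -1.41, or 2.66-fold, with an adjusted limma p of 0.00553. Leaving out 1 array at a time kept the difference between -1.51 and -1.28. The adjusted limma p then lay between 0.00949 and 0.138 and passed the threshold without Neo replicate 1 (0.0316) or HDAC4 replicate 1 (0.00949), but not without any of the other 6 arrays.

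Unlike any other collagen probe, Col24a1 had all 8 values at what the numbers show as a floor of the reference channel. Where the reference is set to a floor of 10 units, the ratio holds the signal of the cells alone and falls on multiples of 0.1. Read that way, the Col24a1 signal was 44, 34, 33 and 33 units on the Neo arrays and 18, 11, 15 and 12 units on the HDAC4 arrays. The HDAC4 signals thus lay just above the floor itself. The other 205 probes with all 8 values at this floor had a median difference of -0.55, and 90.2% of them were lower in HDAC4. Of these, 17 (8.29%) had a more negative difference than Col24a1. With the median of floor probes set equal on all arrays, Col24a1 differed by -0.83, or 1.78-fold, with an adjusted limma p of 0.613. With that offset removed and the arrays numbered 1 as a batch, the same -0.83 had an adjusted limma p of 0.0360.

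Col18a1 encodes the chain of type XVIII, a basement membrane collagen whose end fragment is endostatin. RefSeq gives it starts in 2 windows, and both are shown because Col18a1 had the highest difference among the members and the array does not tell which start was used. Both lie on the minus strand of GRCm38.p6, 250 bases before the start at chr10:77166531-77166780 (first) and chr10:77113706-77113955 (second). They are written 5′ to 3′ with capitals for GGGCGG (GC box) and CCAAT on either strand.
Col18a1 first window: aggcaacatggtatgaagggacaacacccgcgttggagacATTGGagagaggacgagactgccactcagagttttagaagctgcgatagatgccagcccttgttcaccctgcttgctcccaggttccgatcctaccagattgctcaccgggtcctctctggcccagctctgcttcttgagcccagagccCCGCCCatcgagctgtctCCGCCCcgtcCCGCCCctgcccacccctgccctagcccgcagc
Col18a1 second window: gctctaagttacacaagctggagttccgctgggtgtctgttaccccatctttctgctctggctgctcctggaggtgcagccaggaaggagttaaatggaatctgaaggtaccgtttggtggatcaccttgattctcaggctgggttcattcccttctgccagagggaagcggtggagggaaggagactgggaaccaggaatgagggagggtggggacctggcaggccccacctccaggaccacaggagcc
The first window holds 3 GC boxes and 1 CCAAT box, and the second holds none of the motifs searched. Of all RefSeq promoter windows, 35.7% hold a GC box and 37.4% a CCAAT box.

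The Col18a1 probe (M200012500) had log2 ratios of -0.27, -1.28, -0.83 and -1.08 on the Neo arrays. On the HDAC4 arrays it had -0.19, 0.44, 0.45 and 0.67. The groups did not overlap, but the 2 arrays numbered 1 lay next to each other, 0.08 apart. In the other 3 same-numbered pairs HDAC4 was higher by 1.72, 1.28 and 1.76.

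The Neo mean was -0.87 ± 0.44 (SD, n = 4), and the HDAC4 mean was 0.34 ± 0.37 (SD, n = 4). Their difference of 1.21 ± 0.25 (SE), or 2.31-fold, did not pass over all 8 arrays (adjusted limma p = 0.169, exact two-sided permutation p = 0.0286). Without the arrays numbered 1 it was 1.59 ± 0.14 (SE), or 3.0-fold, with an adjusted limma p of 0.00511. It also passed with 1 array of that pair left out. The difference was 1.41 without Neo replicate 1, with an adjusted limma p of 0.0422, and 1.39 without HDAC4 replicate 1, with one of 0.0464. It did not pass with any of the other 6 arrays left out (adjusted limma p of 0.429 to 0.513), with the pair as a batch (0.0884) or with the replicate block (0.224). None of its values was at the reference floor. Col15a1, the gene of the related type XV chain of muscle and capillary basement membranes, had 1 to 2 Neo values on 2 probes, no HDAC4 value, and was not tested.

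**Figure D2:**
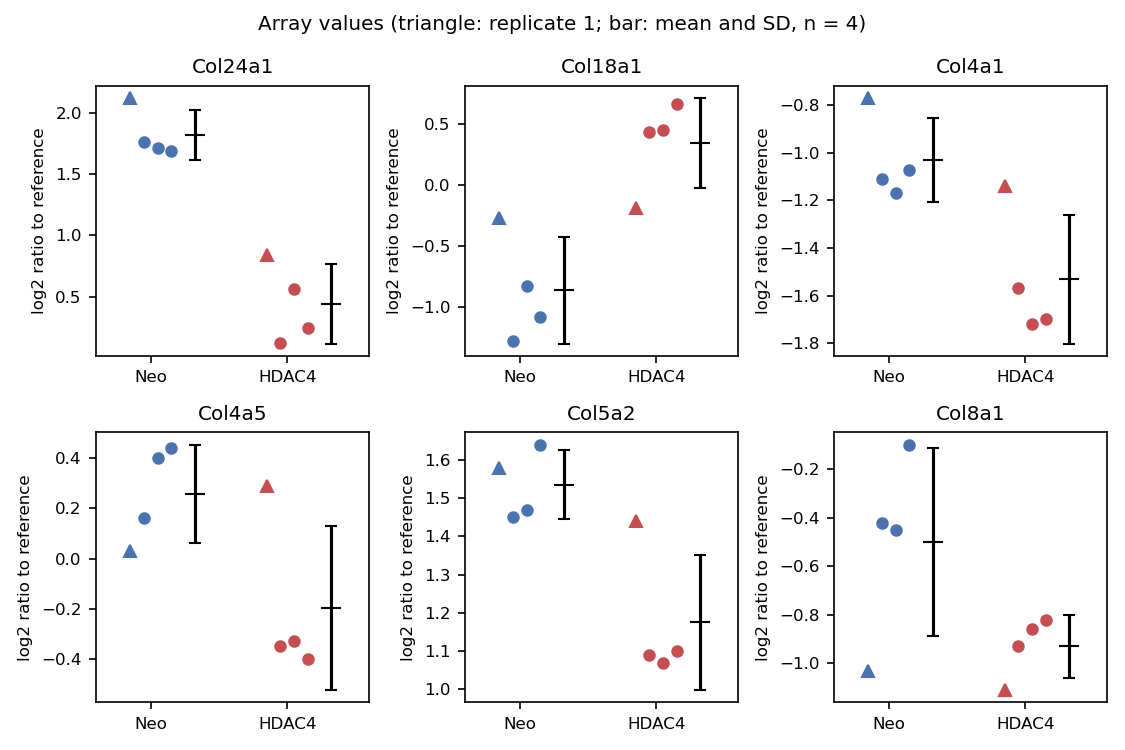
Centred log2 ratio to the reference (vertical axis, a scale of its own in each panel) on the 4 Neo and 4 HDAC4 arrays for 6 collagen probes; triangles are replicate 1, circles the other replicates, and bars the mean and SD. Col24a1, Col18a1 and Col5a2 show no overlap of the groups, and HDAC4 replicate 1 of Col4a5, at 0.29, lies within the Neo range.

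All 7 tested probes of type IV collagen, the network former of the basement membrane, had a value below 0 for HDAC4 minus Neo. Their median was -0.22, where all 16748 probes had 8275 above and 8473 below 0. None of the 7 passed the adjusted test over all 8 arrays, and 2 of them had an unadjusted p under 0.05. When the pair numbered 1 was left out, 5 of 6 were below 0 with a median of -0.26, and those of Col4a1 and Col4a5 passed.

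The Col4a1 probe (M300007740), for the chain that makes up most of the common type IV trimer, had -0.77, -1.11, -1.17 and -1.07 on the Neo arrays. The HDAC4 values were -1.14, -1.57, -1.72 and -1.70. HDAC4 was lower in 4 of 4 same-numbered pairs, with differences of -0.63 to -0.37, although HDAC4 replicate 1 lay above Neo replicate 3. The difference was -0.50 ± 0.17 (SE), or 1.42-fold, with an adjusted limma p of 0.526 and an exact two-sided permutation p of 0.0571. On the 6 other arrays it was -0.55 ± 0.10 (SE), or 1.46-fold, with an adjusted limma p of 0.0411. With the pair as a batch the adjusted limma p was 0.0693.

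Col4a2 encodes the partner chain in that trimer and has 4 tested probes. They differed by -0.28 ± 0.21, -0.22 ± 0.12, -0.06 ± 0.39 and -0.09 ± 0.62 (SE), and the smallest adjusted limma p among them was 0.797. The same probes had -0.27, -0.24, -0.07 and 0.02 without the arrays numbered 1, and none passed. The last 2 of them (M300007745 and M300007748) were much lower on the arrays numbered 1 than on the others, with differences of -1.27 and -2.02, and their errors are wide. The 6 probes that name both Col4a1 and Col4a2 gave 4 tested values of -0.38, -0.46, -0.25 and 0.11, with no adjusted limma p under 0.364. On the 6 other arrays these were -0.39, -0.47, -0.16 and -0.05. In the reference the 2 genes lie next to each other on opposite strands, and their promoter windows share 78 bases.

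Col4a5 encodes a chain of the specialised networks and lies next to Col4a6, again on the other strand. Its probe (M200009824) had 0.03, 0.16, 0.40 and 0.44 on the Neo arrays and 0.29, -0.35, -0.33 and -0.40 on the HDAC4 arrays. HDAC4 replicate 1 fell among the Neo values, and the other 3 HDAC4 values lay below all of them. The difference was -0.46 ± 0.19 (SE), with an adjusted limma p of 0.660, and without the arrays numbered 1 it was -0.70 ± 0.11 (SE), or 1.62-fold, with an adjusted limma p of 0.0284. Col4a6 had 1 tested probe, at -0.18 ± 0.21 (SE). Another Col4a6 probe had values on all 4 Neo arrays but on 1 HDAC4 array, where its -0.18 lay above the Neo values of -1.05 to -0.59. An untested Col4a2 probe (M300007747) had 2 Neo and 3 HDAC4 values. Col4a3, a chain of kidney and lung basement membranes, and Col4a4 could not be tested.

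**Figure D3:**
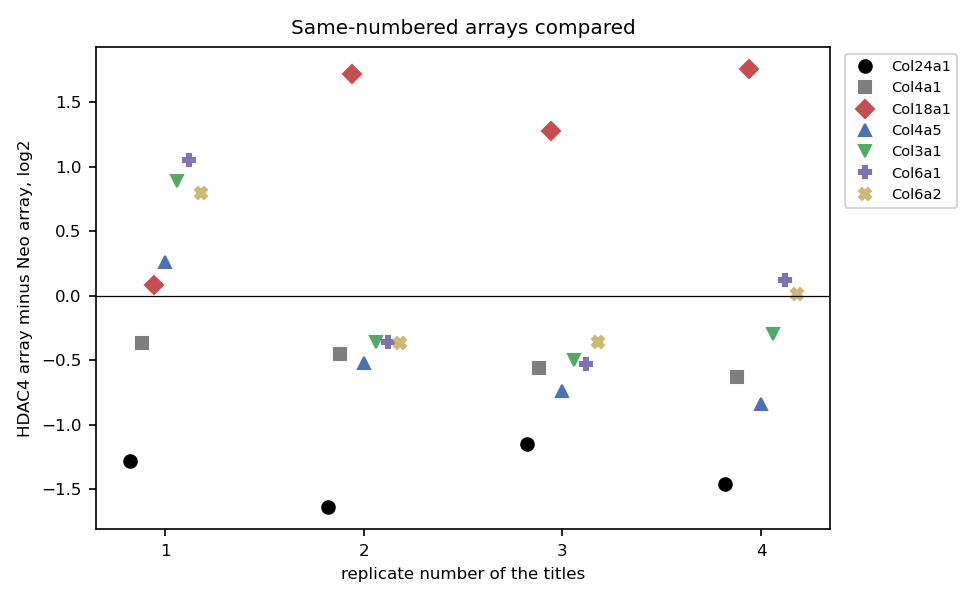
Difference between the HDAC4 and the Neo array of the same replicate number (vertical axis, log2) for 7 collagen probes, by replicate number (horizontal axis). Col24a1 and Col4a1 are below 0 at all 4 numbers, whereas Col3a1, Col6a1 and Col6a2 are above 0 at number 1 (0.89, 1.05 and 0.80) and below 0 at numbers 2 and 3.

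Among the fibrillar collagens, 8 of 10 genes were tested, with 17 probes, of which 10 were above and 7 below 0 with a median of 0.06. The median was 0.03 without the arrays numbered 1. Apart from Col24a1 none of them passed the adjusted test in either fit.

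Col5a2 encodes a chain of type V, the collagen that starts fibrils and limits their width. Its probe (M200002917) had 1.58, 1.45, 1.47 and 1.64 on the Neo arrays and 1.44, 1.09, 1.07 and 1.10 on the HDAC4 arrays. The groups did not overlap, by a margin of 0.01. The difference was -0.36 ± 0.13 (SE), or 1.28-fold, with an adjusted limma p of 0.623 and an exact two-sided permutation p of 0.0286. The value was -0.43 without the arrays numbered 1, with an adjusted limma p of 0.0827.

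The other type V chains are each read by several probes, and these did not keep together. Col5a1, the chain that accompanies Col5a2, had 6 tested probes at -0.17 to 0.15, and Col5a3, the third chain, had 4 at -0.17 to 0.11, none with an adjusted limma p under 0.890. On replicates 2 to 4 alone the ranges were -0.28 to 0.30 and -0.26 to 0.20, and again no probe passed. Between the arrays numbered 1 and the others, 2 Col5a3 probes differed by 1.18 and 1.28, whereas another (M300000513) differed by -0.94. That -0.94 rests on HDAC4 replicate 1 alone, since Neo replicate 1 had no value, and 5 of the probe's values lay at the reference floor. In Col5a1, 2 probes differed by -0.92 and -1.11. The -1.11 (M300005319) rests on Neo replicate 1 alone, since HDAC4 replicate 1 had no value, and 2 of that probe's values lay at the floor. All 5 of these differences passed the adjusted limma test of that contrast.

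**Figure D4:**
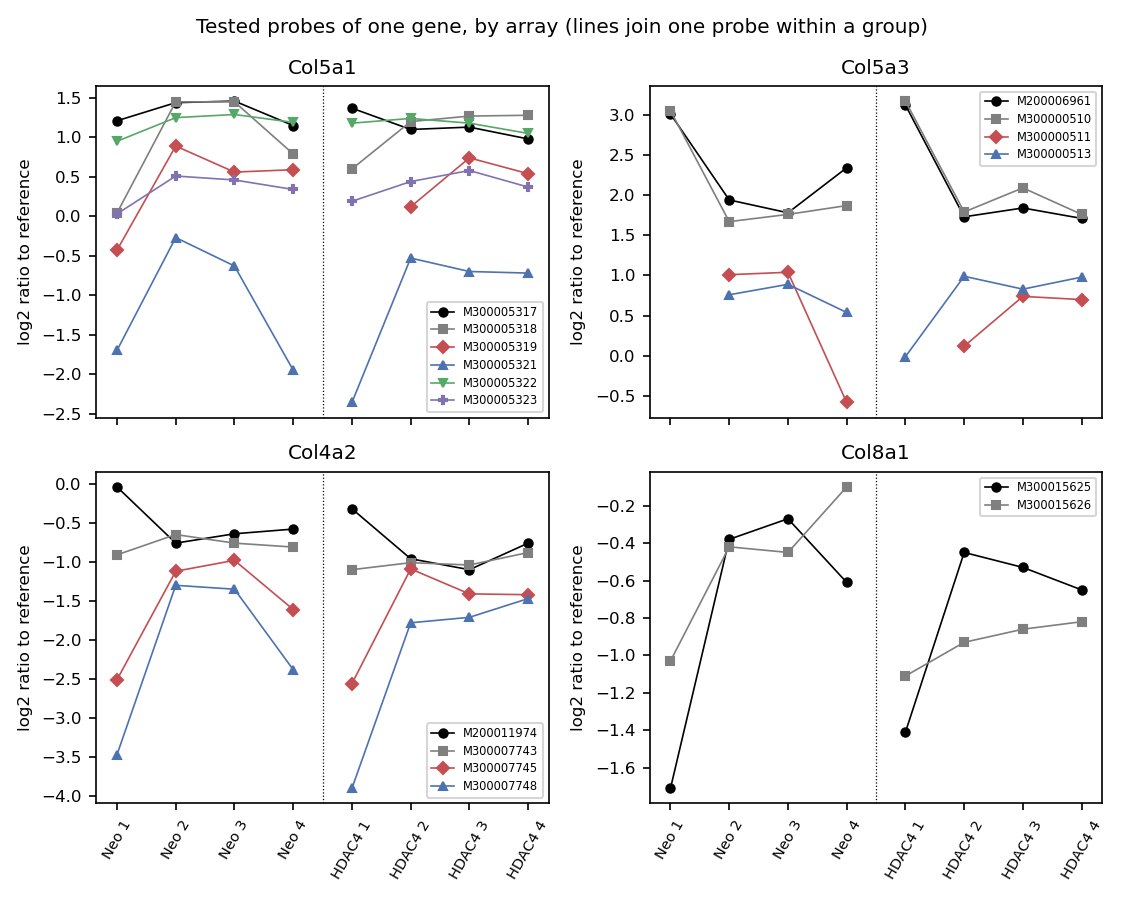
Centred log2 ratio (vertical axis, a scale of its own in each panel) of every tested probe of Col5a1, Col5a3, Col4a2 and Col8a1 on the 8 arrays (horizontal axis); each line joins the values of 1 probe within a group. On both arrays numbered 1 the Col5a3 probes M200006961 and M300000510 are above 3 and the Col4a2 probe M300007748 is below -3.

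Col3a1 encodes type III collagen, the fibril former of the muscle endomysium, and lies next to Col5a2. Its probe had 1.35, 2.25, 2.29 and 2.11 on the Neo arrays and 2.24, 1.89, 1.79 and 1.81 on the HDAC4 arrays. The pairs differed by 0.89 at number 1 and by -0.36, -0.50 and -0.30 at the others, so the first went the opposite way. The difference was -0.07 ± 0.22 (SE) over all arrays. It was -0.39 without the pair, with an adjusted limma p of 0.105.

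Col1a2, the second chain of type I collagen, the main fibril former, had array values that lay close together. Neo averaged -3.05 ± 0.18 (SD, n = 4), and HDAC4 averaged -2.95 ± 0.07 (SD, n = 4). The difference of 0.10 ± 0.13 (SE) had an adjusted limma p of 0.941, and without the arrays numbered 1 it was 0.04.

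Col27a1, a fibrillar collagen of cartilage, had the second highest value among the members at 0.51 ± 0.29 (SE), with an adjusted limma p of 0.818. Its HDAC4 values of -0.47, 0.49, 0.43 and -0.70 were split, and the first and the last lay within the Neo values of -0.84 to -0.17. Its difference was 0.67 without the arrays numbered 1, with an adjusted limma p of 0.344. Col11a2, a chain of the cartilage fibril, had 0.39 ± 0.18 and 0.23 ± 0.19 (SE) on its 2 probes, with adjusted limma p-values of 0.731 and 0.893. The same probes had 0.36 and 0.46 without that pair, and neither passed. Col2a1, the main cartilage collagen, and Col11a1 had too few values to be tested.

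In the FACIT class 4 of 8 genes were tested. Of their 5 probes 4 were above 0, with a median of 0.14, and the 4 that could be tested without the arrays numbered 1 had a median of 0.12. Col14a1, a FACIT collagen of tendon and skin, had 0.27 ± 0.18 and 0.23 ± 0.19 (SE) on its 2 probes, with adjusted limma p-values of 0.872 and 0.891, and 0.17 and 0.11 without the arrays numbered 1. Col16a1, which links fibrils to the cell surface, was the 1 probe below 0, at -0.23 ± 0.17 (SE), and -0.31 without that pair. Col12a1, a FACIT collagen of muscle and tendon, had 0.14 ± 0.33 (SE), with values of -1.42 and -1.22 on the arrays numbered 1 and -0.73 to 0.02 on the other 6, where the difference was 0.13. Col20a1 had 0.14 ± 0.19 (SE) on 1 probe, while another of its probes had a value on all 4 Neo arrays and on 1 HDAC4 array. Col9a1, Col9a2 and Col9a3, the chains of cartilage type IX, and Col19a1 had too few values.

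Of the other collagens, 6 of 11 genes were tested. Their 7 probes had 4 values above and 3 below 0, with a median of 0.02. On replicates 2 to 4, 1 of 6 was above 0 and the median was -0.24. No probe of the class passed in either fit.

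Col6a1 and Col6a2, neighbouring genes for 2 of the chains of type VI collagen, moved with the replicate number. Col6a1 had -1.61, -0.67, -0.61 and -0.97 on the Neo arrays and -0.56, -1.03, -1.15 and -0.86 on the HDAC4 arrays. Col6a2 had -0.87, -0.25, -0.14 and -0.44 on the Neo arrays and -0.07, -0.62, -0.51 and -0.43 on the HDAC4 arrays. In both genes HDAC4 was higher in the pair numbered 1, by 1.05 and 0.80. It was lower in the pairs numbered 2 and 3, with differences of -0.53 to -0.36.

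Over all arrays the differences were 0.07 ± 0.23 (SE) for Col6a1 and 0.02 ± 0.19 (SE) for Col6a2. On replicates 2 to 4 they were -0.26 and -0.24, with adjusted limma p-values of 0.359 and 0.324. Col6a6, a further type VI chain, had 0.11 ± 0.19 (SE) over 3 values in each group.

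Col8a1 encodes a short-chain, network-forming collagen of vessel walls and the cornea. On 1 of its 2 tested probes (M300015626) the Neo values were -1.03, -0.42, -0.45 and -0.10 and the HDAC4 values -1.11, -0.93, -0.86 and -0.82. Neo replicate 1 lay among the HDAC4 values, and the other 3 Neo values lay above them. The difference was -0.43 ± 0.19 (SE), with an adjusted limma p of 0.720, and -0.54 without the arrays numbered 1 (0.0784). The other probe had -0.02 ± 0.33 (SE), and -0.12 without that pair.

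Col7a1, the anchoring fibril collagen of skin, had 0.23 ± 0.20 (SE) and Col26a1 -0.24 ± 0.28 (SE), with adjusted limma p-values of 0.895 and 0.930. They had 0.43 and -0.24 without the arrays numbered 1, with adjusted limma p-values of 0.268 and 0.540, and with 1 array left out Col7a1 ranged from 0.07 to 0.38. The transmembrane collagens Col13a1, Col17a1 and Col23a1, the growth plate collagen Col10a1 and the type VI chain Col6a4 could not be tested. Col13a1, found at the neuromuscular junction, had 2 values on Neo arrays and none on HDAC4 arrays. An untested Col26a1 probe (M200001201) had 2 Neo and 3 HDAC4 values.

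Set side by side, the median difference was 0.06 for fibrillar, -0.20 for basement membrane, 0.14 for FACIT and 0.02 for other collagens, and 0.02 for all 37 probes, where all 16748 probes had -0.0036. The basement membrane class had 7 of 8 probes below 0, all of type IV, with Col18a1 as the 1 above. Without the arrays numbered 1 the medians were 0.03, -0.24, 0.12 and -0.24, and that of all collagens was -0.08, where all probes had -0.01. These are descriptions of the probes, since several of them read 1 gene.

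Genes that serve collagen were read from 4 lists, and none of their tested probes passed the adjusted test over all 8 arrays. For folding and modification, which includes the prolyl and lysyl hydroxylases and chaperones of the endoplasmic reticulum, 11 of 21 tested probes were above and 10 below 0, with a median of 0.01. Replicates 2 to 4 gave 4 of 19 above and 15 below 0, with a median of -0.13 and none past the threshold. P4ha2, a catalytic subunit of prolyl 4-hydroxylase, had the smallest p of the list, with a difference of -0.38 ± 0.12 (SE) and an adjusted limma p of 0.473. The next was Fkbp14, a prolyl isomerase, at 0.29 ± 0.20 (SE).

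For processing and cross-linking, 6 of 10 tested probes were above and 4 below 0, with a median of 0.07. Replicates 2 to 4 gave 3 of 9 above and 6 below 0, with a median of -0.09. Loxl1, a lysyl oxidase, had 0.67 ± 0.22 (SE) with an adjusted limma p of 0.521, and 0.73 with 0.184 without the arrays numbered 1. Lox, another lysyl oxidase, went the other way, at -0.63 ± 0.31 (SE) with an adjusted limma p of 0.77. Without that pair Lox had -0.73 with an adjusted limma p of 0.0709. Pcolce2, which enhances the cleavage of procollagen, had 0.77 ± 0.30 (SE) with 0.639. On the 6 other arrays Pcolce2 had 1.0, with an adjusted limma p of 0.0216.

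Of the collagen receptors, 1 of 7 tested probes was above and 6 were below 0, with a median of -0.32, and on replicates 2 to 4 the counts were equal and the median was -0.47. Cspg4, a proteoglycan that binds type VI collagen, had -0.95 ± 0.36 (SE) with an adjusted limma p of 0.628. Itgb1, the beta chain of the collagen-binding integrins, had -0.34 ± 0.16 (SE) with 0.752. Of the fibril-associated proteins 4 of 10 were above and 6 below 0, with a median of -0.10, and on replicates 2 to 4 these were 3 and 5 of 8 with a median of -0.24. Postn, or periostin, had -0.72 ± 0.23 (SE) with an adjusted limma p of 0.475, and without the arrays numbered 1 it had -1.02 with 0.0227. Fn1, fibronectin, had -0.27 ± 0.18 (SE).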

How the data were processed

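RNA of 4 Neo and 4 HDAC4 samples was read on 8 two-colour arrays. For each probe and array the authors deposited 1 log2 ratio, with column medians of 0.00576 to 0.0286. Not given in the sources used here are background correction, normalization, the cause of missing values, software and genome build. The deposited values, turned back into ratios, were multiples of 0.001 in 100% of those from 0.1 to 10. Multiples of 0.1 (within 0.001 of a whole number of units) made up 0.98% of ratios under 1 and 17.8% of those from 1 to 10. From this a reference floor of 10 units was inferred, which no label states. The spacing of ratios above 10 was not examined. The ratio was read as cells over reference from the dyes in the labels, since myotube genes lay far above 0. Per the labels, the reference was murine liver RNA, but the liver marker genes were missing on most arrays or, in 90.0% of their values, at the reference floor.

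Each array was centred on its median, and each probe with at least 3 values in each group was fitted by lmFit and eBayes of limma 3.58.1, run under R 4.3.3. Benjamini-Hochberg adjustment ran over all 16748 tested probes at 0.05. The fit was tested on simulated data with independent noise on each array. No difference of the arrays numbered 1 was simulated, so that test does not cover it. Single probes were in addition given an exact two-sided permutation p over the arrays (scipy 1.17.1). Probes were named from the platform annotation, of which 404 probes name several genes and 12389 have no entry, with symbols updated through RefSeq's table of GRCm38.p6. Promoters are RefSeq sequence of the same build. Precision is limited by how many arrays there are.

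The collagen genes, the classes and the lists were chosen with earlier results of these data known. The rule named every probe past the threshold, the 5 largest rises and 5 largest falls and the 2 smallest p-values of each class. Other tested collagen probes were named after their values were seen. Pairing by replicate number was checked through deviations from the group means over 14746 probes. Same-numbered arrays correlated at 0.53, 0.31, 0.21 and 0.11, all above the limit of 0.1. That limit does not single out the numbers, since some arrays of unlike number among replicates 2 to 4 passed it too. HDAC4 replicate 4 correlated at 0.27 with Neo replicate 2 and 0.22 with Neo replicate 3, above its 0.11 with Neo replicate 4. HDAC4 replicate 3 had 0.22 with Neo replicate 2. Neo replicate 4 stayed below the limit with HDAC4 replicates 2 and 3, at 0.07 and 0.08. Any pairing rests on the data and not on a label. The reported limma fit and permutation p are unpaired, and the fit with the replicate number as a block is an alternative. Alternatives were the replicate number as a block, the arrays numbered 1 as a batch or left out, other scalings, other minimums of values, removal of an offset at the floor, floor values set to missing, gene means, a variance trend with robust fitting, and each array left out.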

Additional observations from a re-analysis of the deposited data

Results flagged for a closer look

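In 10 of 66 groups of 4 arrays a single array lay farther from the others than Dixon's limit allows. A nominal 1 in 20 would be 3.3 groups. All 10 were arrays numbered 1, of which 3 were Neo and 7 HDAC4. The share of such groups over all probes was not computed, but the arrays numbered 1 differed from the others in 21.7% of all probes. The groups are also not independent, since several probes read 1 gene on the same arrays. In the Neo group, replicate 1 had 2.12 for Col24a1, where the other 3 arrays had 1.69 to 1.76. Neo replicate 1 had 3.05 for Col5a3 (M300000510), against 1.67 to 1.87. It had 1.06 for Col26a1, against 0.20 to 0.32.

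In the HDAC4 group, replicate 1 had 1.44 for Col5a2, where the others had 1.07 to 1.10. For Col4a5 it had 0.29, against -0.40 to -0.33. For the Col5a3 probes M200006961 and M300000513 it had 3.12, against 1.71 to 1.84, and -0.01, against 0.83 to 0.99. For the Col5a1 probes M300005318 and M300005321 it had 0.60, against 1.20 to 1.28, and -2.36, against -0.72 to -0.53. For the Col4a2 probe M300007748 it had -3.90, against -1.78 to -1.47. HDAC4 replicate 1 was thus high for 3 of these 7 probes and low for 4.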

How the results depend on the processing

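Over all probes 21 passed. The replicate block gave 9 and removed no collagen call, since Col24a1 kept an adjusted limma p of 0.0452 (paired). The arrays numbered 1 as a batch gave 108, or 64 with the floor offset also removed, and without these arrays 348 passed, or 268 with at least 2 values in each group. With the floor offset removed 4 passed, 3 higher and 1 lower in HDAC4, and with floor values set to missing 1, which was lower. Leaving out 1 array gave 0 to 88: with limma it was 0 without Neo replicate 2, 3 or 4, where 915, 957 and 936 probes had an unadjusted p under 0.05. Without Neo replicate 1 it was 74, and without HDAC4 replicates 1 to 4 it was 88, 3, 9 and 2. Of the collagen probes 1 passed. Without the arrays numbered 1 it was 4, or 3 with at least 2 values in each group, where Col4a1 no longer passed. With the floor offset removed it was 0, where 1080 of all probes had an unadjusted p under 0.05, and with floor values set to missing it was 0, where 911 did and Col24a1 could not be fitted. Leaving out 1 array gave 0 to 2. The batch and the removal of the floor offset together, and the minimum of 2 values without the pair, were chosen after seeing the data.

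The median of other collagens was -0.24 without the arrays numbered 1, and that of FACIT collagens -0.04 with gene means. With 1 array left out, medians were -0.11 to 0.11 for all collagens, -0.32 to -0.19 for basement membrane, 0.14 to 0.27 for FACIT, -0.04 to 0.12 for fibrillar and -0.14 to 0.13 for other collagens. Of the single probes, in 466 combinations of probe and setting other than leaving out 1 array the direction and side of the threshold stayed, and in 33 the direction turned, in no case for a value past the threshold.

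The turned values were as follows. With the replicate block and with the batch, Col5a3 (M300000513) was 0.20 and Col5a1 (M300005319) -0.21, or 0.48 and -0.09 with the floor offset also removed from the batch fit. With that offset alone removed, Col5a3 (M300000513) was 0.36. Without the arrays numbered 1, with at least 3 or 2 values, Col6a1 was -0.26, Col6a2 -0.24, Col5a3 (M300000513) 0.20, Col5a1 (M300005319) -0.21 and Col4a2 (M300007748) 0.02. With 2 values, Col20a1 was also -0.04 and Col4a6 0.10. With gene means Col20a1 was -0.34, Col5a3 (M300000510, M300000511) -0.22, Col5a1 (M300005317, M300005322) 0.02 and Col4a6 0.07. With means of centred probes they were -0.02, -0.11, 0.01 and 0.08. Quantile normalization gave -0.0013 for Col1a2 and -0.01 for Col6a2. With 1 array left out, values spanned 0 for Col12a1 (-0.11 to 0.38), Col3a1 (-0.28 to 0.03), Col6a1 (-0.15 to 0.19), Col6a2 (-0.13 to 0.11) and Col8a1 (M300015625, -0.34 to 0.20). They also did so for Col4a2 (M300007745, -0.38 to 0.25, and M300007748, -0.54 to 0.47) and Col5a3 (M200006961, -0.51 to 0.08, M300000510, -0.21 to 0.44, and M300000513, -0.13 to 0.20). In Col5a1 the ranges were -0.14 to 0.33 (M300005318), -0.21 to 0.23 (M300005319), -0.21 to 0.49 (M300005321), -0.08 to 0.03 (M300005322) and -0.04 to 0.13 (M300005323). The cause of these turns was not tested.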

Other observations

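The promoters of the collagen genes were described by their letters. RefSeq windows of 300 bases, from 250 before to 50 after the start, were found for 30 of the 37 genes, 33 windows in all, and were set beside the 32851 windows of the table, with both strands searched. The GC box GGGCGG was in 20 collagen windows (60.6%) and in 35.7% of all windows. The E-box CANNTG was in 18 (54.5%) and in 72.3%. CCAAT was in 12 (36.4%) and in 37.4%, and TATAA in 7 (21.2%) and in 24.9%. The MEF2 motif was in 1 collagen window (3.03%), that of Col13a1, a gene not tested here, and in 3.19% of all windows. Some windows overlap or belong to 1 gene, and the base composition of the windows was not matched.

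Pairs of collagen genes lie next to each other in the reference, and their values can be set side by side. Col3a1 and Col5a2 differed by -0.07 and -0.36, and without the arrays numbered 1 by -0.39 and -0.43. Col6a2 and Col6a1 differed by 0.02 and 0.07, and by -0.24 and -0.26. Col4a6 and Col4a5 differed by -0.18 and -0.46, with no value for Col4a6 without that pair at the minimum of 3. For Col9a1 with Col19a1 and Col4a4 with Col4a3 no difference could be given.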
